A study of Rattus norvegicus with 6 samples.

Results

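Interferon response genes are the genes that cells switch on when interferon reaches them, together with the receptors and transcription factors that carry the signal. The 40 genes described here were taken by their gene symbols from the 29468 symbols of the deposited tables, and all 40 were listed there. They comprise 4 receptor chains, 9 transcription factors, 4 proteins of RNA sensing, 1 feedback inhibitor, 7 GTPases, 4 membrane proteins and 11 other effectors. RNA was measured by sequencing in Schwann cell precursors (SCPs), the embryonic forerunners of Schwann cells, and in repair Schwann cells (RSCs), the form that Schwann cells take in a nerve that has lost its axons. SCPs were dissociated from sciatic nerves and brachial plexus of embryos at day 14 of gestation. RSCs were dissociated from the distal segment of sciatic nerves of 10 week old rats 1 week after the nerve was cut. All rats were of the LEWIS strain and labelled as wild type, whereas the paper took its grafted cells from reporter-transgenic LEWIS rats. It does not state separately which rats gave the RNA. Each group had 3 samples, numbered as replicates 1 to 3. Per the paper's methods, adult nerves were digested for longer and with more collagenase than embryonic nerves. The 2 groups therefore differ in age, tissue, injury and digestion together, and the effects of these cannot be told apart. The labels do not say whether the samples came from separate animals or litters, so the p-values measure the spread between these preparations.

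Type I interferons, the interferon alpha and beta proteins, bind a receptor made of Ifnar1 and Ifnar2, and the kinases Jak1 and Tyk2 then activate a complex with Stat2 and Irf9 that binds the interferon-stimulated response element (ISRE) in target promoters. Interferon gamma, made mainly by lymphocytes and natural killer cells, binds a receptor made of Ifngr1 and Ifngr2, and Jak1 and Jak2 then set off signalling to the gamma-activated site (GAS). Both pathways induce proteins that block viruses and intracellular microbes at many steps. In injured nerves, interferon signalling is known both in Schwann cells and in the immune cells that enter the nerve.

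RSCs had more RNA of most interferon response genes than SCPs. Values are FPKM, counts of sequenced fragments scaled to transcript length and to the number of fragments mapped in the sample, and differences are given as log2 fold change ± standard error of FPKM + 1, RSC minus SCP, from limma. Of the 40 genes, 36 passed a filter at a mean of 1 FPKM over the 6 samples. At an unadjusted p under 0.01, 28 of the 36 were higher in RSCs, 0 were higher in SCPs and 8 did not pass. Among all 13003 genes tested, 18.1% were higher in RSCs and 22.4% were higher in SCPs by the same limma call. Of the members, 20 were more than 4-fold higher in RSCs, against 7.81% of all genes tested, and 25 had a Benjamini-Hochberg adjusted p under 0.01. The median log2 fold change over the 36 was 2.35, with a range from −0.94 to 6.22. The same median over all genes tested was −0.17, and it was 0.0053 after median-of-ratios scaling. In 32 of the 40 genes all 3 RSC samples lay above all 3 SCP samples, in 1 the SCP samples lay above, and in 7 the groups overlapped. Among the 36 tested, RSC samples lay above in 30 and SCP samples in 0, against 24.9% and 33.7% of all genes tested. A gene that was low in SCPs could pass the filter only through RSCs, and 18 of the members reached a mean of 1 FPKM in RSCs alone. Of the 18 that reached it in both groups, 12 were higher in RSCs. The share over all genes that reached it in both groups was not worked out, so this count has no baseline. In bulk RNA, fewer cells that express a gene and less RNA per cell cannot be told apart.

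**Figure D1:**
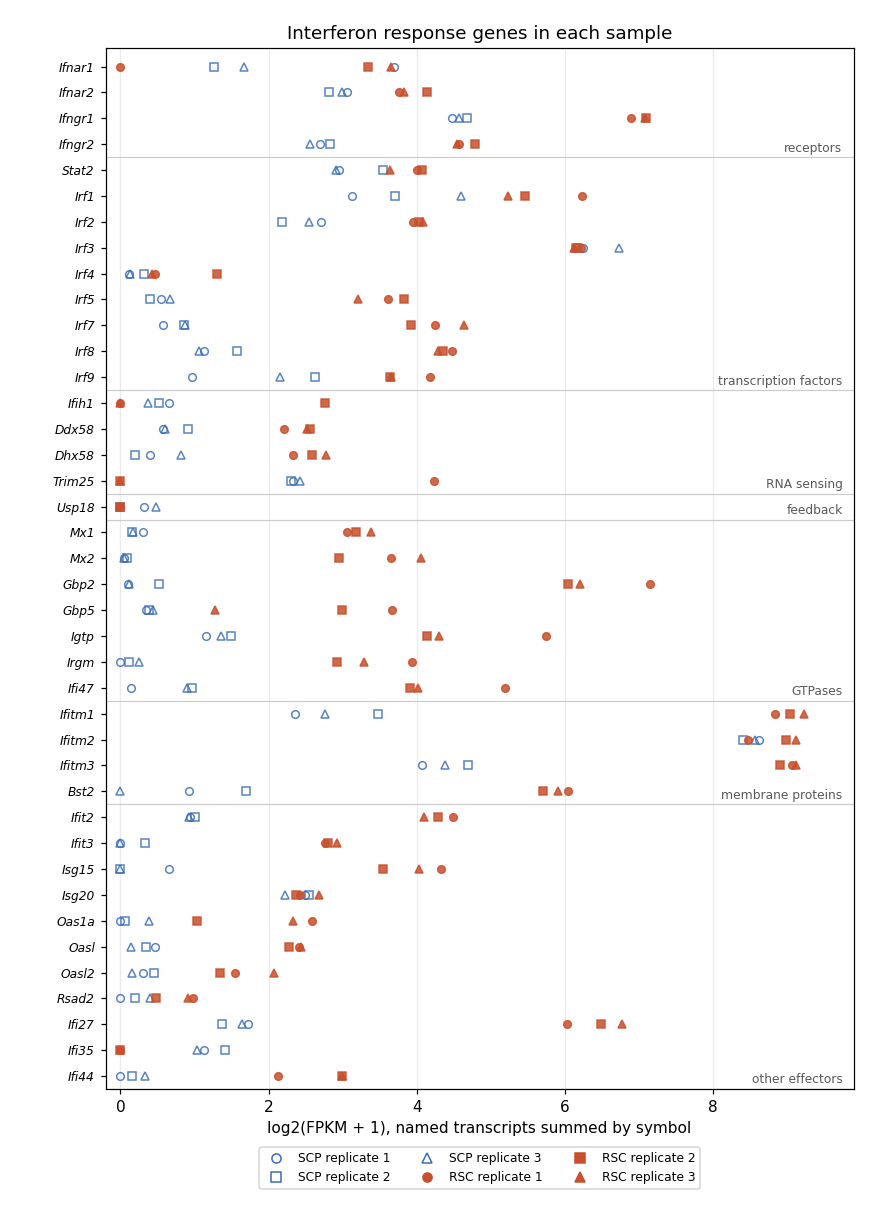
Level of each of the 40 interferon response genes in the 6 samples, as log2(FPKM + 1) of the named transcripts; open blue symbols are SCPs, filled red symbols are RSCs, and the symbol's shape gives the replicate. The RSC samples sit to the right of the SCP samples in 32 rows, Ifitm2 is high in both groups, and Usp18 and Ifi35 are at 0 in all 3 RSC samples.

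Beside these differences, genes that mark other cell types also differed between the groups. Of 16 macrophage and myeloid marker genes listed, all 16 were tested and 15 were higher in RSCs, and their summed level was 29.5 to 76.6 FPKM in SCPs and 3209 to 4221 FPKM in RSCs. Aif1, a defining microglia and macrophage marker, had 1.13, 4.599 and 6.36 FPKM in SCPs and 142, 159 and 149.9 FPKM in RSCs. Csf1r, the receptor that macrophages need to survive, had 1.48, 3.83 and 3.27 FPKM in SCPs and 54.4, 83.8 and 66.3 FPKM in RSCs, and Ptprc, the pan-leukocyte antigen CD45, had 0.193, 0.758 and 0.609 FPKM in SCPs and 10.8, 11.9 and 7.33 FPKM in RSCs. Summed fibroblast markers ran from 642 to 1026 FPKM in SCPs and from 5385 to 8067 FPKM in RSCs, with 7 of 8 called higher in RSCs, among them Col1a1, the main fibrillar collagen chain, at 79.99, 194 and 226 FPKM in SCPs and 1614, 2076 and 1628 FPKM in RSCs. The 11 lymphocyte markers had sums of 0.912 to 1.25 FPKM in SCPs and 8.99 to 31.2 FPKM in RSCs, and the 4 that were tested were near 0 in SCPs and passed the filter through RSCs alone. Of the 11, 6 were at 0 in all 3 SCP samples. The T cell marker Cd3e was at 0 in all 3 SCP samples and reached 2.93, 1.25 and 1.71 FPKM in RSCs, while of the B cell markers Ms4a1 was at 0 in all 6 samples and Cd79a had 0.429, 0.595 and 0.6802 FPKM in SCPs and 0.171, 0 and 0 FPKM in RSCs. The 8 Schwann lineage markers had sums of 451 to 511 FPKM in SCPs and 1873 to 2395 FPKM in RSCs. Of the 7 that were tested, 3 were called higher in RSCs and 1, Sox10, was called higher in SCPs. The Schwann lineage factor Sox10 was high in both groups, at 179, 175 and 181 FPKM in SCPs and 149, 143 and 143 FPKM in RSCs (−0.30 ± 0.06, limma adjusted p = 0.0077). The precursor and repair cell marker Ngfr had 233, 173 and 231 FPKM in SCPs and 1046, 803 and 1068 FPKM in RSCs. Of 8 endothelial markers 1, Cldn5, was called higher in RSCs, with 7.98, 15.2 and 10.3 FPKM in SCPs and 40.02, 47.1 and 40.5 FPKM in RSCs, while Pecam1 had 5.604, 9.65 and 6.55 FPKM in SCPs and 9.37, 5.77 and 4.08 FPKM in RSCs, and the summed list ran from 41.4 to 72.1 FPKM in SCPs and from 96.5 to 109 FPKM in RSCs. Erythroid markers ran the other way, with sums of 80.1 to 275 FPKM in SCPs and 0 to 1.94 FPKM in RSCs, and all 4 that were tested were higher in SCPs. The study's methods include a short adhesion to uncoated flasks to deplete fibroblasts and macrophages before the cells were used. The paper also gauged purity by Sox10 immunolabelling of cultured cells, and most cells of both types were labelled. The part of the other cell types in the differences of the interferon response genes was not tested.

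The promoters of the members give a view that does not depend on the measured levels. RefSeq promoter sequences on the GRCr8 build, from 250 bases before to 50 bases after the gene start, were available here for 32 of the 40 genes. The ISRE core was searched as GAAANNGAAA on both strands, and the GAS as TTCNNNGAA, which reads the same on both strands. The ISRE core was in 16 of 32 promoters (50%), against 3.92% of all 33469 promoters of this length. The GAS was in 10 of 32 (31.2%), against 8.87% of all promoters. Both were in 5 members, Oas1a, Ifitm3, Bst2, Igtp and Irgm, and in 1 of them, Bst2, the matches overlapped. Of the 21 members called higher in RSCs that had a promoter sequence, 11 held the ISRE core and 10 held the GAS. A match is a run of letters and not a shown binding site, and the members were chosen as known interferon targets. The 250 bases before the start are printed 5′ to 3′ on the gene's strand, with the ISRE core in capitals, for 7 members. Gbp2, Bst2, Ifi27 and Ifitm3 were the 4 called members with the largest change among those with a match, Igtp and Irgm held a GAS the same distance from the ISRE core, and Ifitm2 held a match but was not called.
Gbp2, chr2:234005477-234005726, plus strand: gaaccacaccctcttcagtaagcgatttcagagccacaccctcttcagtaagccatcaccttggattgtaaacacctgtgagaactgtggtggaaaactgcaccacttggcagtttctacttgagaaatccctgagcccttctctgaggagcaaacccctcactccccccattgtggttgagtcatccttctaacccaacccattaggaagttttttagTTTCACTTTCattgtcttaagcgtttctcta
Bst2, chr16:18254968-18255217, minus strand: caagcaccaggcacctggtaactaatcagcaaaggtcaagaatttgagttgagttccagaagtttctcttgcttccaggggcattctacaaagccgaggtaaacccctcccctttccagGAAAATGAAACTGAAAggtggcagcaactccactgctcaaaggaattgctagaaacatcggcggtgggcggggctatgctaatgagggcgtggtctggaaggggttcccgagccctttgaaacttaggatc
Ifi27, chr6:128355062-128355311, plus strand: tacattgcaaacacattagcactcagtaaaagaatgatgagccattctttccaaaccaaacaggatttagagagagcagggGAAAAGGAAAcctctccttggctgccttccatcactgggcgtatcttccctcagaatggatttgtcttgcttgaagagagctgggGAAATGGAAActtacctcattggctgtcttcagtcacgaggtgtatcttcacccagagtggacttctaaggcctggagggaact
Ifitm3, chr1:205541759-205542008, minus strand: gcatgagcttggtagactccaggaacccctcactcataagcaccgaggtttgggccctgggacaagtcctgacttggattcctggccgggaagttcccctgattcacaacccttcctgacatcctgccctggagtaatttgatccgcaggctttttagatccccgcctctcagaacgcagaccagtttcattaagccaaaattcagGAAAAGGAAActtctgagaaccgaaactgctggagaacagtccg
Igtp, chr10:42874797-42875046, plus strand: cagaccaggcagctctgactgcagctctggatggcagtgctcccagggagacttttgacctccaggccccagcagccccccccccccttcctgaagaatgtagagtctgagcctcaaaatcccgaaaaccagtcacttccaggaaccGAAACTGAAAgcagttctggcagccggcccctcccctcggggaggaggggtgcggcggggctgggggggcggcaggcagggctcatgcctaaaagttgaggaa
Irgm, chr10:33742579-33742828, minus strand: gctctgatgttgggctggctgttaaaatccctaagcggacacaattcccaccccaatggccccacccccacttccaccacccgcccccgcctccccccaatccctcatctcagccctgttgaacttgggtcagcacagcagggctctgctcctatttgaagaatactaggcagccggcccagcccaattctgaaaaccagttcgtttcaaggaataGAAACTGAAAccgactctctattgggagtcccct
Ifitm2, chr1:205482349-205482598, minus strand: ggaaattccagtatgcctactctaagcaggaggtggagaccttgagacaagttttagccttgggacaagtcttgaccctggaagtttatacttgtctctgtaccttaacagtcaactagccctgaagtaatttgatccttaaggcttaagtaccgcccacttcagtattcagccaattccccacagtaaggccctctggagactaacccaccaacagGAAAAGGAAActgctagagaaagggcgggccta

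Positions within these promoters are counted from the gene start, with −1 for the last base before it, and give the first base of a match. The ISRE core began at −31 in Gbp2, −33 in Ifitm2, −34 in Irgm, −44 in Ifitm3 and −103 in Igtp. Ifi27 held 2 cores, at −169 and −84, and Bst2 held 2 overlapping cores, at −131 and −125, which form a single run of 16 capitals. In Irgm and Igtp, both immunity-related GTPases, the GAS began 11 bases before the ISRE core, at −45 and −114. In Ifitm3 the order was the other way round, with the GAS at −33. Ifitm2 and Ifitm3, which lie close together on chromosome 1, shared a core of the same letters close to the start, and Ifitm3 was called higher in RSCs while Ifitm2 was not.

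Among the receptor chains, both chains of the interferon gamma receptor were higher in RSCs. Ifngr1, the ligand-binding chain, had 21.3, 24.6 and 22.9 FPKM in SCPs and 118, 136 and 135 FPKM in RSCs (log2 fold change 2.45 ± 0.098, limma adjusted p = 3.00e-05). Every RSC sample lay above every SCP sample by a wide margin, and the spread within each group was small. Ifngr2, the chain that carries Jak2, had 5.49, 6.13 and 4.88 FPKM in SCPs and 22.9, 26.5 and 22.4 FPKM in RSCs (1.94 ± 0.14, adjusted p = 1.91e-04), again without overlap. Ifnar2, a chain of the type I receptor, had 7.301, 6.03 and 6.96 FPKM in SCPs and 12.6, 16.7 and 13.2 FPKM in RSCs (0.96 ± 0.16, adjusted p = 0.00441). Its groups did not overlap, and its difference was the smallest among the called members. Ifnar1, the partner of Ifnar2, had 11.9, 1.41 and 2.17 FPKM in SCPs and 0, 9.101 and 11.6 FPKM in RSCs, and its groups overlapped (0.12 ± 1.16, limma adjusted p = 0.943).

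The value of Ifnar1 depended on how transcripts were named. In each table Cufflinks listed the annotated transcripts by name and also listed transcripts that it had assembled from that sample and that carry no name. When unnamed transcripts were added to the gene of the same locus that they overlapped most, Ifnar1 had 11.9, 10.1 and 11.6 FPKM in SCPs and 20.4, 24.6 and 25.2 FPKM in RSCs. On that sum every RSC sample lay above every SCP sample (0.99 ± 0.12, adjusted p = 4.95e-04). The genes for Ifnar2, Ifnar1 and Ifngr2 lie within 185 kb on rn6, at chr11:31527615-31712611, and on that sum all 3 were higher in RSCs.

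The transcription factors divided into those that were near 0 in SCPs and those that were present in both groups. Irf7, which amplifies the type I response, had 0.488, 0.821 and 0.823 FPKM in SCPs and 18, 14.2 and 23.97 FPKM in RSCs (3.50 ± 0.24, limma adjusted p = 1.57e-04). Irf8, a factor of myeloid development, had 1.19, 1.98 and 1.09 FPKM in SCPs and 21.3, 19.4 and 18.5 FPKM in RSCs (3.12 ± 0.20), and Irf5, which drives inflammatory genes in myeloid cells, had 0.464, 0.318 and 0.587 FPKM in SCPs and 11.2, 13.2 and 8.23 FPKM in RSCs (3.01 ± 0.23). In these 3 genes the lowest RSC sample was many times the highest SCP sample. Irf4, a factor of lymphocytes, was low throughout, at 0.0887, 0.248 and 0.0935 FPKM in SCPs and 0.376, 1.46 and 0.346 FPKM in RSCs, and did not pass the filter.

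Irf1, which interferon gamma induces strongly, had 7.76, 12.03 and 23.1 FPKM in SCPs and 74.2, 43.2 and 36.6 FPKM in RSCs (1.83 ± 0.44, unadjusted p = 0.00597). Its groups did not overlap, and RSC replicate 1 was the highest sample. Irf2, an antagonist of Irf1, had 5.56, 3.52 and 4.86 FPKM in SCPs and 14.4, 15.4 and 15.99 FPKM in RSCs (1.54 ± 0.18, adjusted p = 0.00113). Irf9, the DNA-binding partner of Stat2, had 0.956, 5.19 and 3.45 FPKM in SCPs and 17.1, 11.4 and 11.6 FPKM in RSCs (1.91 ± 0.45, unadjusted p = 0.00586). On the named transcripts, RSC samples lay close together in Irf2, while SCP samples differed widely in Irf1 and Irf9. On those transcripts the calls of Irf1 and Irf9 were lost in 5 and 4 of the 6 fits that left out 1 sample. The log2 fold changes in those fits were 1.49 to 2.04 for Irf1 and 1.73 to 2.02 for Irf9. With unnamed transcripts added, Irf1 had 19.9, 24.6 and 23.1 FPKM in SCPs (1.63 ± 0.23, limma adjusted p = 9.86e-04). Irf9 had 6.46, 8.32 and 3.45 FPKM in SCPs on that sum (1.56 ± 0.28, adjusted p = 0.0026). Stat2 had 6.73, 10.6 and 6.499 FPKM in SCPs and 15, 15.9 and 11.5 FPKM in RSCs, and although its groups did not overlap it missed the threshold (0.77 ± 0.23, limma adjusted p = 0.0356). With unnamed transcripts added, Stat2 passed (0.78 ± 0.14, limma adjusted p = 0.0023). Irf3, which is made constantly in most cells and is activated by phosphorylation, was among the most abundant of these factors in both groups, with 74.9, 71.2 and 105 FPKM in SCPs and 73.6, 70.4 and 68.5 FPKM in RSCs. Its groups overlapped and its difference was within the spread (−0.22 ± 0.16, limma adjusted p = 0.3099), with the opposite sign once unnamed transcripts were added (0.42 ± 0.30).

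Among the proteins of RNA sensing, 2 of 4 were called higher in RSCs. Ddx58, the viral RNA sensor RIG-I, had 0.491, 0.882 and 0.518 FPKM in SCPs and 3.62, 4.89 and 4.75 FPKM in RSCs (1.73 ± 0.22, limma adjusted p = 0.00161). Dhx58, the related regulator LGP2, had 0.316, 0.148 and 0.756 FPKM in SCPs and 4.01, 4.99 and 5.84 FPKM in RSCs (2.09 ± 0.26, adjusted p = 0.001399). Both were under 1 FPKM in every SCP sample and between 3.62 and 5.84 FPKM in RSCs. Ifih1, the RNA sensor MDA5, had 0.581, 0.435 and 0.294 FPKM in SCPs and 0, 5.81 and 0 FPKM in RSCs, so that its named transcript was at 0 in RSC replicates 1 and 3. With unnamed transcripts added, Ifih1 had 5.43, 5.81 and 5.35 FPKM in RSCs, and its SCP values did not move (2.19 ± 0.15, adjusted p = 4.21e-05). Trim25, the ubiquitin ligase that activates RIG-I, had 4.05, 3.93 and 4.35 FPKM in SCPs and 17.8, 0 and 0 FPKM in RSCs. Its RSC values became 17.8, 16.9 and 19.02 FPKM once unnamed transcripts were added, and the sign of its difference turned, from −0.94 ± 1.17 to 1.89 ± 0.11 (adjusted p = 2.00e-05 on that sum). The 3 RSC samples then lay within a narrow range, as the 3 SCP samples did already.

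Usp18, the only feedback inhibitor among the members, removes Isg15 from proteins and blocks signalling at Ifnar2. Its named transcript was at 0.247, 0 and 0.3904 FPKM in SCPs and at 0 in every RSC sample, and it did not pass the filter. The unnamed transcripts at its locus brought RSCs to 7.82, 6.51 and 7.64 FPKM and left SCPs unchanged (2.79 ± 0.18, limma adjusted p = 3.36e-05). In RSCs its whole measured level thus came from transcripts without a name. Unnamed transcripts were added to 31 of the 40 members in at least 1 sample. With them, 37 members passed the filter and 35 were called higher in RSCs, against 23.2% of the 14020 genes tested on that sum, and 24 were over 4-fold. Irf3 and Isg20 were the members tested that were not called. Their addition did not always widen a difference. Isg15 went from a log2 fold change of 3.75 to 1.51, with SCPs at 4.52, 3.93 and 5.06 FPKM on that sum.

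**Figure D2:**
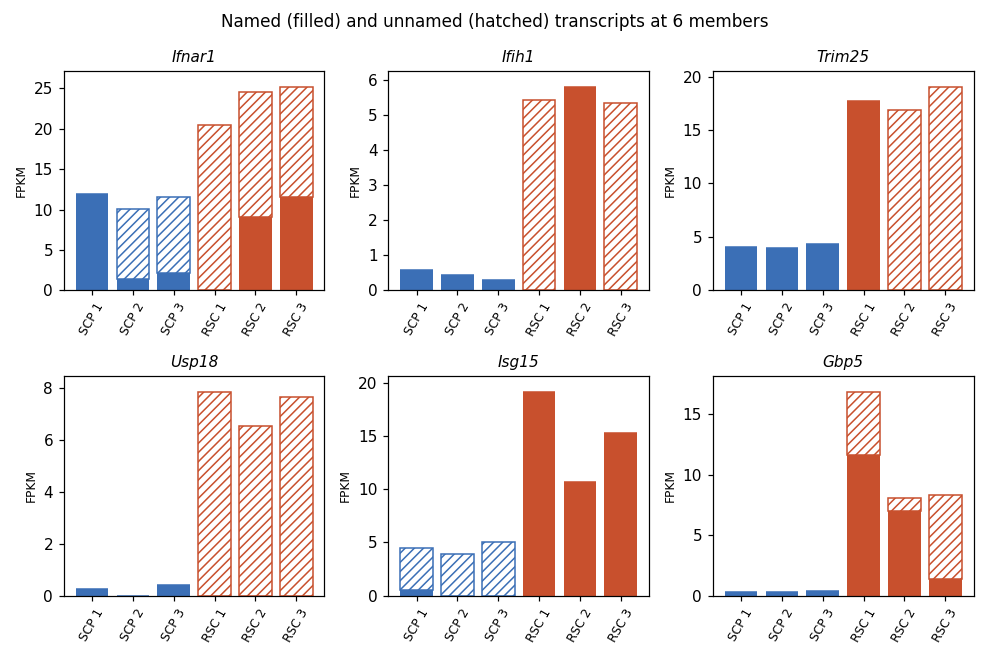
FPKM of 6 members in each sample, with named transcripts as filled bars and unnamed transcripts of the same locus as hatched bars on top; blue bars are SCPs and red bars are RSCs, and each bar is 1 sample. In RSC replicates 2 and 3 the whole level of Trim25 is hatched, in all 3 RSC samples the whole level of Usp18 is hatched, and Isg15 gains hatched bars in SCPs.

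Of the 7 GTPases 6 were called higher in RSCs, all 6 by more than 4-fold. Gbp2, a guanylate-binding protein that attacks the vacuoles of intracellular microbes, had 0.0783, 0.439 and 0.0825 FPKM in SCPs and 141, 65.1 and 72.9 FPKM in RSCs (6.22 ± 0.33, limma adjusted p = 6.31e-05). No other member had a larger log2 fold change. Gbp5, a related guanylate-binding protein at the other end of a 115 kb stretch at chr2:248178441-248293784, had 0.267, 0.313 and 0.352 FPKM in SCPs and 11.6, 6.96 and 1.42 FPKM in RSCs. The groups of Gbp5 did not overlap, yet RSC samples differed so widely that it missed the threshold (2.25 ± 0.61, limma adjusted p = 0.0264). With unnamed transcripts Gbp5 had 16.8, 8.07 and 8.34 FPKM in RSCs and passed (3.13 ± 0.28, adjusted p = 1.23e-04).

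The immunity-related GTPases Igtp, Irgm and Ifi47, which also act on vacuoles and are induced by interferon gamma, moved in the same direction. Igtp had 1.22, 1.81 and 1.57 FPKM in SCPs and 52.4, 16.7 and 18.7 FPKM in RSCs (3.39 ± 0.45), Ifi47 had 0.103, 0.959 and 0.865 FPKM in SCPs and 35.5, 13.98 and 15.2 FPKM in RSCs (3.70 ± 0.43), and Irgm had 0, 0.0832 and 0.188 FPKM in SCPs and 14.3, 6.58 and 8.77 FPKM in RSCs (3.26 ± 0.31). In each of them RSC replicate 1 was well above the other RSC samples. The dynamin-like GTPases Mx1 and Mx2, classic inhibitors of viruses that lie within 172 kb at chr11:37891150-38062685, did not have this order. Mx1 had 0.234, 0.1096 and 0.123 FPKM in SCPs and 7.33, 8.04 and 9.42 FPKM in RSCs (3.00 ± 0.20), and Mx2 had 0.0306, 0.0679 and 0.0326 FPKM in SCPs and 11.6, 6.703 and 15.6 FPKM in RSCs (3.49 ± 0.32). Both were near 0 in SCPs, and RSC replicate 3 was the highest sample in both. Reads from close relatives such as these, the Ifitm genes and the Oas genes may be assigned to either gene, and the sources used here do not say how this was handled.

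The membrane proteins held the most abundant members. Ifitm1, Ifitm2 and Ifitm3 encode small membrane proteins that stop viruses from fusing with the cell, and they lie within 61.6 kb at chr1:213750219-213811821. Ifitm1 had 4.14, 10.2 and 5.798 FPKM in SCPs and 458, 524 and 599 FPKM in RSCs (6.17 ± 0.29, limma adjusted p = 4.73e-05). Ifitm3 had 15.8, 24.8 and 19.8 FPKM in SCPs and 535, 479 and 556 FPKM in RSCs (4.65 ± 0.17, adjusted p = 2.50e-05). Ifitm2, in contrast, was already high in SCPs, with 393, 337 and 379.6 FPKM in SCPs and 353, 506 and 555 FPKM in RSCs (0.33 ± 0.18, limma adjusted p = 0.188). The groups of Ifitm2 overlapped through RSC replicate 1, whose value rose to 550 FPKM with unnamed transcripts, and on that sum the groups separated (0.54 ± 0.08, adjusted p = 0.00126). Of the summed FPKM of the 3 genes, Ifitm2 made up 95.2%, 90.6% and 93.7% in SCP replicates 1 to 3 and 26.2%, 33.5% and 32.5% in RSC replicates 1 to 3. The summed level of the cluster thus came mainly from 1 gene in SCPs and from 3 genes of like level in RSCs. Bst2, or tetherin, which holds budding viruses at the cell surface, was at 0 in SCP replicate 3 and had 0.902, 2.23 and 0 FPKM in SCPs and 65.04, 51.3 and 59.02 FPKM in RSCs (5.01 ± 0.43, adjusted p = 3.33e-04).

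Of the 11 other effectors 9 were tested and 8 were higher in RSCs. Ifi27, a mitochondrial and nuclear envelope protein that marks the type I response, had 2.29, 1.597 and 2.12 FPKM in SCPs and 64.3, 88.97 and 108 FPKM in RSCs (4.85 ± 0.22, limma adjusted p = 4.30e-05). Ifit2 and Ifit3, within 16.7 kb at chr1:252894663-252911377, whose products bind foreign RNA, had 0.9097, 1.001 and 0.902 FPKM in SCPs and 21.5, 18.5 and 16.2 FPKM in RSCs (3.34 ± 0.17) and 0, 0.262 and 0 FPKM in SCPs and 5.78, 5.995 and 6.58 FPKM in RSCs (2.72 ± 0.21), respectively. Isg15, a ubiquitin-like protein that is attached to other proteins, had 0.574, 0 and 0 FPKM in SCPs and 19.1, 10.7 and 15.3 FPKM in RSCs (3.75 ± 0.31). All 4 were separated between the groups by several-fold or more on the named transcripts. Ifi44 had 0, 0.118 and 0.265 FPKM in SCPs and 3.36, 6.94 and 6.95 FPKM in RSCs (2.53 ± 0.31), and with unnamed transcripts its RSC values were 14.4, 21.3 and 11.7 FPKM.

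The oligoadenylate synthetase family makes a messenger that activates RNA decay. On the named transcripts, Oas1a had 0, 0.0445 and 0.302 FPKM in SCPs and 5.01, 1.05 and 4.02 FPKM in RSCs (1.84 ± 0.45, unadjusted p = 0.00701), and RSC replicate 2 was the low sample. On those transcripts its call was lost in 5 of the 6 fits that left out 1 sample, with log2 fold changes of 1.53 to 1.95 in those fits. With unnamed transcripts added, Oas1a had 5.01, 5.06 and 4.02 FPKM in RSCs, and its SCP values did not move (2.36 ± 0.18, limma adjusted p = 6.7e-05). The related Oasl and Oasl2 had 0.386, 0.271 and 0.102 FPKM in SCPs and 4.33, 3.85 and 4.42 FPKM in RSCs (2.06 ± 0.21) and 0.236, 0.367 and 0.117 FPKM in SCPs and 1.93, 1.53 and 3.23 FPKM in RSCs (1.35 ± 0.28), respectively, without overlap in either. Rsad2, or viperin, was under 1 FPKM in all 6 samples, with 0, 0.141 and 0.319 FPKM in SCPs and 0.981, 0.3904 and 0.887 FPKM in RSCs, and was not tested. Isg20, an RNA-degrading nuclease, did not differ beyond the spread, with 4.63, 4.84 and 3.67 FPKM in SCPs and 4.38, 4.17 and 5.44 FPKM in RSCs (0.07 ± 0.19, limma adjusted p = 0.778).

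Ifi35 was the 1 member whose SCP samples lay above its RSC samples. Its named transcript was at 1.18, 1.65 and 1.04 FPKM in SCPs and was listed at 0 in every RSC sample, and no unnamed transcript was added to it. It did not pass the filter. In a fit without the filter, in which 13.4% of 20494 genes were called higher in RSCs, Ifi35 was called higher in SCPs (limma adjusted p = 0.00165) and 28 members were called higher in RSCs. A 0 in these tables can be a failed estimate. In RSCs each 0 of Usp18 and Trim25 was flagged LOWDATA by Cufflinks and stood beside unnamed transcripts. The 0 values of Ifi35 were flagged OK and had no such transcripts. Whether Ifi35 was truly absent from RSCs was not tested, and no fold is given for it.

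**Figure D3:**
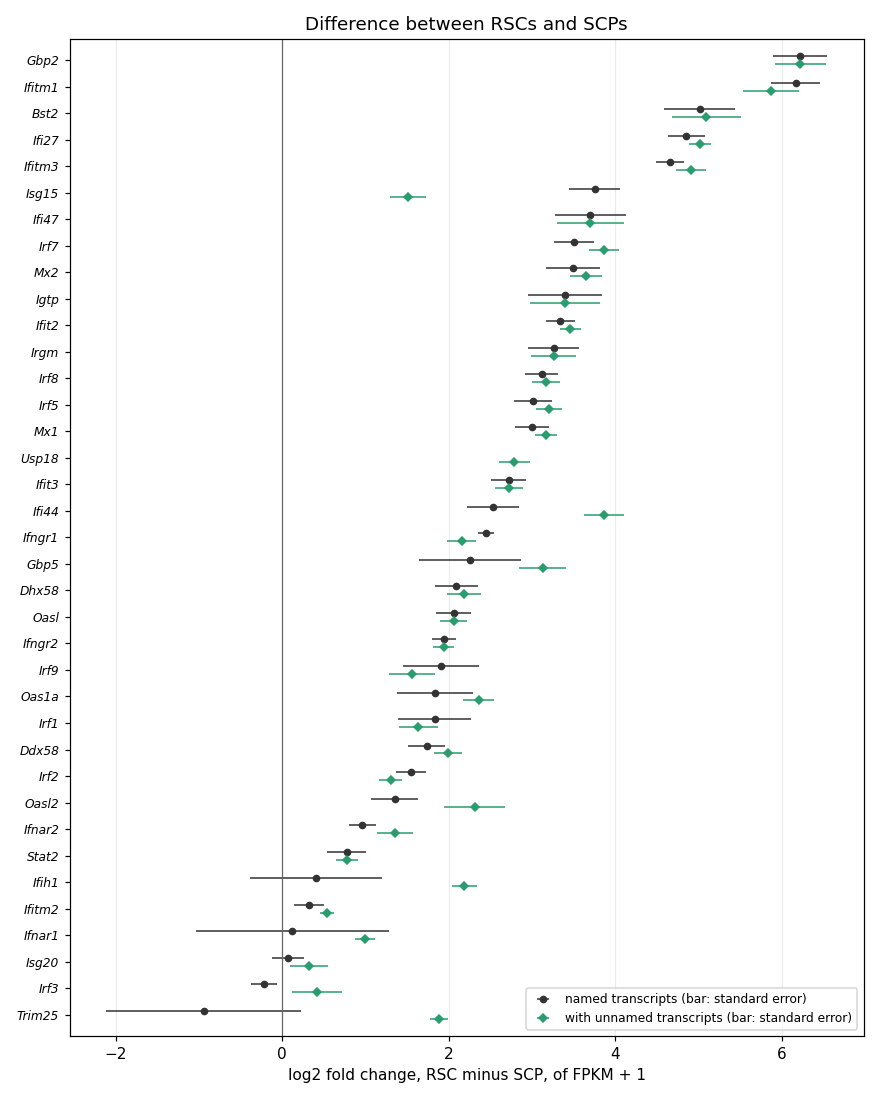
Log2 fold change of FPKM + 1, RSC minus SCP, of each member that passed the filter, from the named transcripts (black circles) and with unnamed transcripts added (green diamonds); bars are standard errors from limma and the line marks no difference. Gbp2 and Ifitm1 lie furthest to the right at 6.22 and 6.17, Trim25 moves from −0.94 to 1.89, and Isg15 moves from 3.75 to 1.51.

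RSC samples did not rank alike across the members. RSC replicate 1 exceeded the mean of RSC replicates 2 and 3 by at least 1.5 times in 6 of the 36 tested members (16.7%), both on the named transcripts and with unnamed transcripts, against 4.27% of all 13003 genes tested. The 6 were Irf1 and the GTPases Gbp2, Gbp5, Igtp, Irgm and Ifi47. This order was noticed after the values were seen and was given no test. On the named transcripts, RSC replicate 1 was 2.97 times that mean in Igtp, 2.43 times in Ifi47, 2.04 times in Gbp2, 1.86 times in Irf1 and 1.86 times in Irgm. It was 0.816 times in Ifitm1, 0.652 times in Ifi27, 0.8402 times in Mx1, 0.919 times in Ifit3 and 0.943 times in Irf7, and so was not raised there. In between, it was 1.47 times in Isg15 on both sums, while Oas1a was at 1.98 times on the named transcripts and 1.104 with unnamed transcripts, and Oasl2 at 0.8102 and 2.77 times.

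Without RSC replicate 1 the log2 fold change was 5.88 for Gbp2, 3.29 for Ifi47, 2.98 for Irgm and 2.88 for Igtp, and each stayed called in limma. Ifng, which encodes interferon gamma, was at 0 throughout SCPs and reached 2.65, 0.621 and 1.98 FPKM in RSC replicates 1 to 3. These values are low, and Ifng did not pass the filter and was not tested. The summed lymphocyte markers were 31.2, 8.99 and 15.1 FPKM in the same samples. Nkg7, a marker of cytotoxic lymphocytes, was at 10.4, 1.91 and 5.07 FPKM there. RSC replicate 1 was thus the highest sample in Ifng and in the lymphocyte markers too, and their part in the order of the GTPases was not tested. Summed macrophage and myeloid markers had another order, with RSC replicate 1 the lowest at 3209 FPKM against 3958 and 4221 FPKM.

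**Figure D4:**
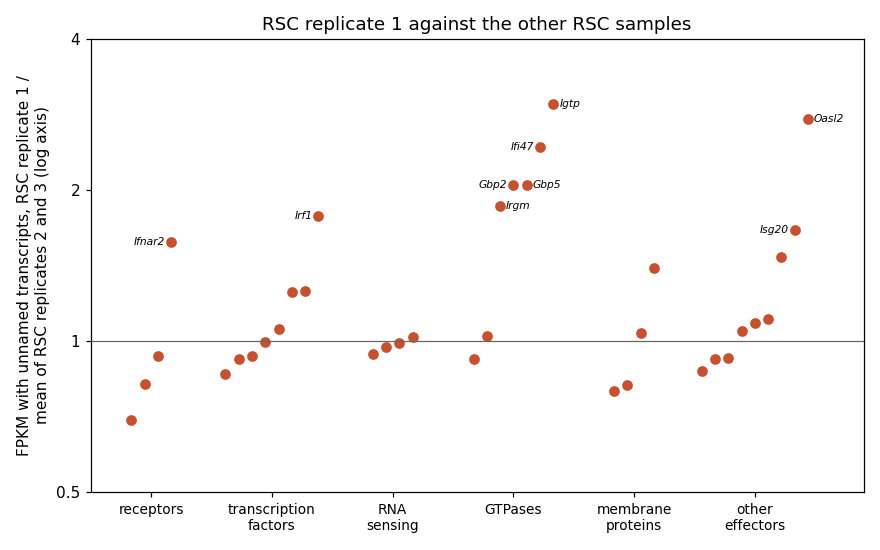
FPKM with unnamed transcripts in RSC replicate 1 divided by the mean of RSC replicates 2 and 3, on a log axis, for each tested member by role; each point is 1 gene, genes at 1.5 or above are named and the line marks equal levels. Of the 7 GTPases, 5 lie between 1.86 and 2.97, while Mx1 and Mx2 lie near 1; Ifnar2, Isg20 and Oasl2 are high only once unnamed transcripts are added.

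The rest of the interferon pathway was described with a further list of 87 genes, of which 81 were listed in the tables and 60 were tested. Of these, 38 were higher in RSCs and 1 was higher in SCPs, against 18.1% and 22.4% of all genes tested, and 21 did not pass the call. The median log2 fold change was 1.51. Of the list, 28 genes reached a mean of 1 FPKM in RSCs alone, and of the 34 that reached it in both groups 19 were higher in RSCs. The matching shares over all genes were not worked out. Among the ligands, Ifnb1 was at 0 in SCPs and at 0.577, 0 and 0.571 FPKM in RSCs, while Ifna1 and Ifna4 were listed at 0 in all 6 samples. Jak1, used by both receptors, had 34.4, 31.9 and 32.96 FPKM in SCPs and 50.4, 51.9 and 48.5 FPKM in RSCs (0.59 ± 0.08, limma adjusted p = 0.00197), and Jak2, the partner of Ifngr2, had 4.09, 2.89 and 5.15 FPKM in SCPs and 16.8, 38.96 and 24.8 FPKM in RSCs (2.41 ± 0.34). Both kinases were higher in every RSC sample than in any SCP sample. Tyk2 was at 0 in SCP replicate 2 and was not called, with 6.899, 0 and 7.14 FPKM in SCPs and 10.9, 10.1 and 11.1 FPKM in RSCs (1.54 ± 0.84, limma adjusted p = 0.182).

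The 5 genes of this list with the largest called changes were Ifi27l2b, a relative of Ifi27 (5.33 ± 0.39), the chemokine Cxcl10 (4.98 ± 0.39), Slfn2, which holds lymphocytes and macrophages in quiescence (4.89 ± 0.31), the secreted glycoprotein Lgals3bp (4.48 ± 0.13) and the immunoproteasome subunit Psmb9 (4.28 ± 0.66). Cxcl10, which attracts T cells, had 0.368, 0.343 and 0.9705 FPKM in SCPs and 84.7, 34.7 and 36.3 FPKM in RSCs. Psmb9 had 0, 0.224 and 0.254 FPKM in SCPs and 58.4, 8.44 and 18.98 FPKM in RSCs, with RSC replicate 1 far above the other RSC samples. Mov10, an RNA helicase that restricts retroelements, was the 1 gene called higher in SCPs, with 24.7, 10.7 and 16.6 FPKM there and 0 in all 3 RSC samples. Such a 0 can be a failed estimate, which was not tested here. On the named transcripts, Mov10 and Ifi35 were the only genes of the 2 lists with all SCP samples above all RSC samples, and with unnamed transcripts Uba7 and Pias4 joined them. The direction of Uba7 turned between the 2 sums. On the named transcripts it had 0.732, 0.533 and 0 FPKM in SCPs and 3.79, 1.03 and 0.806 FPKM in RSCs. With unnamed transcripts it had 13.6, 17.2 and 9.94 FPKM in SCPs and 6.43, 4.41 and 3.95 FPKM in RSCs.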

How the data were processed

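RNA of 3 SCP and 3 RSC preparations was sequenced by the authors as stranded, paired-end mRNA libraries. Per the labels, reads were checked with FastQC 0.11.2, mapped to rn6 with TopHat2 2.1.0 and quantified with Cufflinks 2.2.1. The authors deposited, for each sample, a table of transcripts with FPKM and read coverage. FPKM is normalized for transcript length and mapped fragments. The deposited coverage, a signal, was used only for relative depth, which was 0.88 to 1.00 of the deepest sample in SCPs and 0.79 to 0.84 in RSCs. Absolute depth is unknown, so precision rests on the 3 preparations per group.

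FPKM of the 61743 named transcripts per table were summed by symbol. Gene names that spreadsheet software had converted to dates, 77 per sample, were not used. Transcripts without a name held 18.6% to 31.9% of all FPKM and were added only as an alternative.

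The test was limma 3.58.1 (R 4.3.3), two-sided and with a variance trend, on log2(FPKM + 1) of genes whose mean reached 1 FPKM. This scale understates the change of low genes. The call was an unadjusted p under 0.01. The study's methods set p under 0.01 together with a log2 fold change over 2, without stating an adjustment, and counts over 4-fold apply both. Benjamini-Hochberg adjustment ran over all genes tested. On simulated data for this comparison (13003 genes, 200 changed by a log2 fold change of 3), 90.5% of changed and 1.16% of unchanged genes were called. Tables and figures were made in Python 3.11.15 with pandas 2.3.3 and matplotlib 3.10.9. Samples that share a replicate number were not treated as pairs. The labels name no batch.

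The members and gene lists were chosen with earlier results of these data known. All members are named. Of the other pathway genes, those named are the ligands and carriers of the signal (Ifnb1, Ifng, Jak1, Jak2, Tyk2) and the 5 largest called changes in each direction. Some genes that this rule and the marker lists name are not reported here. Ifna1, Ifna4, Nkg7, Cd79a, Cldn5, Uba7, Pias4 and the genes named for their level in RSC replicate 1 were chosen after their values were seen. Alternatives were another pseudocount, filters, scalings, the variance trend, the replicate block, the highest transcript per symbol, unnamed transcripts added, zeros left out and leaving out each sample.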

Additional observations from a re-analysis of the deposited data

Results flagged for a closer look

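In 4 members, transcripts without a name carried most of the level in RSC samples whose named transcripts were at 0, above the highest SCP sample on the same sum. In Usp18 this held for all 3 RSC samples, the lowest of which had 6.51 FPKM, against at most 0.390 FPKM in SCPs. In Trim25 it held for RSC replicates 2 and 3, with 16.9 and 19.0 FPKM against at most 4.35 FPKM in SCPs. In Ifih1 it held for RSC replicates 1 and 3, with 5.43 and 5.35 FPKM against at most 0.581 FPKM. In Ifnar1 it held for RSC replicate 1, with 20.4 FPKM against at most 11.9 FPKM. These transcripts lie outside the sums that the main comparison used, and whether they are further isoforms of the genes was not tested.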

How the results depend on the processing

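Of the 28 members called higher in RSCs, all 28 kept that direction and 24 kept the call under every alternative run, and the exceptions were Irf1, Irf9, Oas1a and Oasl2. The count of members higher in RSCs was 19 to 35 over the alternatives and 26 to 27 when 1 sample was left out. With the replicate number as a block it was 24 members and 32 other pathway genes, against 28 and 38 without the pairing. Samples with the same number had small correlations of their deviations from the group means (0.044, −0.0049 and 0.026). Still, 4 of the 6 samples correlated best with their own number. With 3 samples per group this check cannot settle whether the numbers pair the samples, and the main test did not pair them. Members higher in SCPs numbered 1 with no filter (Ifi35) and 0 to 1 when 1 sample was left out (Trim25 without RSC replicate 1, −2.35). The members' median log2 fold change was 3.72 with a pseudocount of 0.1, 2.07 with no filter and 3.06 with a mean of at least 5 FPKM. For the other pathway genes, 24 were higher in RSCs with a mean of at least 5 FPKM. Those higher in SCPs numbered 3 with unnamed transcripts and 1 to 2 when 1 sample was left out (2 without SCP replicate 3). Their median was 2.37 with a pseudocount of 0.1, 1.15 with no filter, 2.22 with a mean of at least 5 FPKM, 1.69 with median-of-ratios scaling, 1.37 with the highest transcript per symbol, 1.76 with unnamed transcripts, 1.71 with zeros left out and 1.47 to 1.73 when 1 sample was left out. Both filters change the genes tested, and the cause of the other shifts was not tested. Signs turned in 5 members that were not called. Ifnar1 was −0.65 and Ifih1 −0.43 with a pseudocount of 0.1, Irf3 was 0.36 with the highest transcript and 0.42 with unnamed transcripts, and Trim25 was 1.89 with unnamed transcripts and 1.88 with zeros left out. With 1 sample left out, Ifnar1 ran from −0.54 to 1.29, with −0.35, −0.15 and −0.38 between, Ifih1 from −0.52 (without RSC replicate 2) to 0.87, and Isg20 from −0.025 to 0.14 (−0.022 without RSC replicate 3).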

Other observations

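RSC replicate 1 was at least 1.5 times the mean of the other 2 on both sums in 4.27% of all 13003 genes tested. The other pathway list had 14 such genes among its 60 tested (23.3%). They included the chemokines Cxcl9 at 25.4, 4.47 and 9.16 FPKM and Cxcl10 at 84.7, 34.7 and 36.3 FPKM in RSC replicates 1 to 3, the immunoproteasome subunits Psmb8 at 16.1, 8.28 and 7.06 FPKM and Psmb9 at 58.4, 8.44 and 18.98 FPKM, the peptide transporter Tap1 at 35.5, 16.8 and 11.8 FPKM and the GTPase Irgm2 at 44.9, 16.05 and 19.9 FPKM. Jak1 and Socs3, a feedback inhibitor at 122, 109.5 and 129.6 FPKM, were not among them. These genes were named after their values were seen, and the list was not tested.

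Of the 40 members, 16 lie in 7 runs with gaps of less than 200 kb between members on rn6. Besides the receptor, Ifitm, Ifit, Mx and Gbp runs, these are Irgm and Ifi47 at chr10:34213885-34287190 and Oasl and Oasl2 at chr12:47444138-47483121.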
